A study of Saccharomyces cerevisiae with 6 samples.

Results

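The small-subunit processome is the large nucleolar particle that forms on nascent pre-rRNA and carries out the early folding, modification and cleavage of the RNA that becomes 18S rRNA. The genes described here encode 55 of its proteins and associated early pre-rRNA factors in budding yeast. They were picked by systematic name, without use of any measured value, from the 6692 gene identifiers of the deposited count files, and all 55 were found. The box C/D core proteins are not among them. All 55 had enough reads to be tested, so no member was lost to the filter on low counts.

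In this particle the UtpA complex binds the start of the transcript as it emerges, UtpB follows and contacts the U3 small nucleolar RNA, and U3 base-pairs with the pre-rRNA. The Mpp10 complex, the GTPase Bms1 with Rcl1, and RNA helicases then help to fold and cut the transcript and to release U3. In growing yeast these genes belong to the ribosome biogenesis regulon, many of whose promoters carry PAC (polymerase A and C) and RRPE (ribosomal RNA processing element) sequences.

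Rio1, whose loss the series examined, is an essential atypical protein kinase that acts late in maturation of the small subunit and at the rDNA. All 6 libraries came from a MATa W303 strain that carries ura3-1, his3-11,15 and a leu2 allele, together with trp1-1, ade2-1 and can1-100. In it RIO1 carries an auxin-inducible degron (RIO1-AID) and the ADH1 promoter drives OsTIR1, the plant F-box protein that binds tagged proteins when auxin is present. Cells grew exponentially at 23 °C in YPD, a rich glucose medium. For the 3 depleted libraries auxin was added at 500 µM for 1 h, and the 3 control libraries are of cells of the named strain without auxin. The sample titles and the series text call the controls wild type, although the strain fields give RIO1-AID and OsTIR1 for both groups. No library combined auxin with an untagged Rio1, so auxin itself and loss of Rio1 cannot be told apart. If the titles are right, the degron tag and OsTIR1 also differ between the groups and cannot be told apart from these. The labels do not say that the libraries came from separate cultures, and the p-values therefore measure only how far these libraries spread, which can be technical.

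Total RNA depleted of rRNA was sequenced. Gene counts summed to between 683896 and 1671136 per library, and the median member had between 147 and 312 counts in a library. Levels are given as CPM, counts per 1e+06 gene counts after TMM scaling (a factor per library that aligns the bulk of genes), and log2 fold changes are depleted minus control ± SE. The targeted gene, RIO1 (YOR119C), measured 66.0, 66.6 and 63.1 CPM in the controls (libraries 1 to 3, in that order here and below). After depletion it measured 130.2, 112.7 and 94.0 CPM. Its mRNA rose by 0.78 ± 0.17 (edgeR quasi-likelihood test, Benjamini-Hochberg adjusted p = 0.00159). The degron removes protein, so this level does not show whether Rio1 was depleted. The share of gene counts taken by 137 cytosolic ribosomal protein genes was 24.9% ± 0.23 (SD, n = 3) in controls and 11.4% ± 0.15 (SD, n = 3) in depleted libraries. Counts are relative, so a rise of some transcripts and a fall of the others cannot be told apart. Fewer transcripts per cell and fewer cells with a transcript cannot be told apart either, because these are bulk samples.

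After depletion 20 of the 55 members rose, 2 fell and 33 did not pass the threshold (adjusted p under 0.05). Among all 5195 genes tested 14.1% rose and 14.1% fell, against 36.4% and 3.64% of the members. The median log2 fold change was 0.21 over the members and 0.01 over all genes tested. The genes that rose did so by 1.23-fold to 1.73-fold, with a median of 1.44-fold. UtpB, the helicase partners and the other structural factors held 4 of them each. The Mpp10 complex and the helicases held 3 each, and the further factors 2. UTP22, of UtpC, and RRP9, the U3-specific protein, fell. In 26 members every depleted library lay above every control library, which held for 20.6% of all genes tested. In 3 members every depleted library lay below every control library, which held for 20.0% of all genes. Those 3 were UTP22, RRP9 and RRP5.

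**Figure D1:**
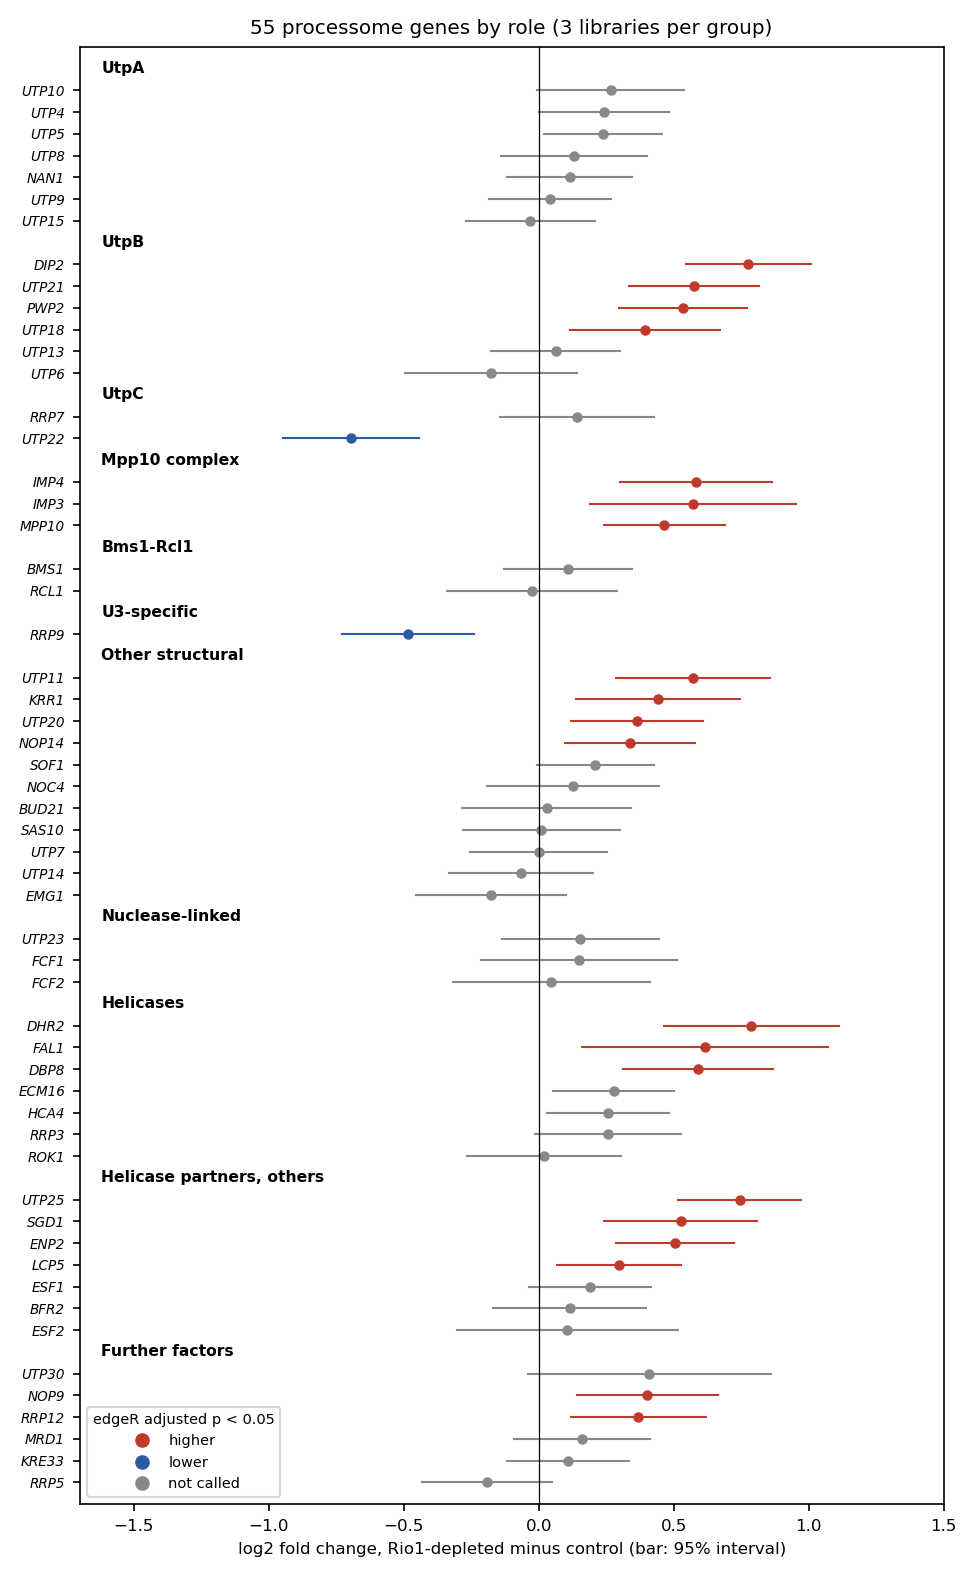
Log2 fold change (depleted minus control) of each of the 55 members, grouped by role, with a bar for the 95% interval. Red marks the 20 members called higher, blue the 2 called lower and grey the 33 not called; the UtpA group has no red point and all 3 members of the Mpp10 complex are red.

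The start-site regions of members from groups with opposite or differing outcomes are printed here because motif matches in them are counted against the calls. Windows from 250 bases before to 50 bases after the start codon were read from the RefSeq R64 reference genome (sacCer3), which is not the W303 strain that was sequenced. PAC was searched as CGATGAG and RRPE as AAAAATTTT, each on both strands. Capitals mark the matches, and stretches run 5′ to 3′ on the coding strand. The first 8 are from members that rose, in UtpB (DIP2, UTP21 and PWP2), the helicases and their relatives (DHR2, UTP25) and the Mpp10 complex (MPP10, IMP3 and IMP4). The next is from a UtpA member that was not called, and the last 2, from 150 to 71 bases before the start codon, are from the 2 members that fell and hold no match.
DIP2, chrXII:399519-399560, plus strand: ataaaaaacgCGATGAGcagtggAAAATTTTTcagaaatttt
UTP21, chrXII:937329-937377, minus strand: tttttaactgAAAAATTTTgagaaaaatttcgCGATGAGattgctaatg
PWP2, chrIII:223357-223393, minus strand: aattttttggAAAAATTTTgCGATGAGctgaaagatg
DHR2, chrXI:288758-288784, plus strand: aaattctgctCGATGAGatgagatgag
UTP25, chrIX:193270-193331, minus strand: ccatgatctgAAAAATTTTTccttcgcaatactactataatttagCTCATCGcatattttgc
MPP10, chrX:438779-438805, plus strand: ttcaattttgCGATGAGctcttgaaga
IMP3, chrVIII:393442-393468, plus strand: ctgatataagCTCATCGcaacaaaaat
IMP4, chrXIV:485449-485496, plus strand: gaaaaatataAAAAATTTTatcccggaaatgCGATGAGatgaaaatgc
UTP10, chrX:217394-217436, minus strand: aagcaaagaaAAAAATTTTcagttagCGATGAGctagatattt
UTP22, chrVII:662208-662287, plus strand: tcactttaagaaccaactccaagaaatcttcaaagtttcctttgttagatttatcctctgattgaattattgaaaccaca
RRP9, chrXVI:802209-802288, plus strand: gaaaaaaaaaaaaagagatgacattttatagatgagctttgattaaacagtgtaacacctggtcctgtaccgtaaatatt

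PAC was present in the window of 39 of the 55 members (70.9%), against 421 of all 6001 windows (7.02%). This comparison with the calls was chosen after the fold changes had been seen, and it is given without a test. Of the 39 members with PAC, 19 rose and none fell, and their median log2 fold change was 0.28. Of the 16 without it, 1 rose (NOP9) and 2 fell, and their median was 0.12. Of the 33 members that were not called, 20 also held PAC, among them 6 of the 7 genes of UtpA. Among tested genes that are no members, 56 of 358 with PAC rose (15.6%), against 13.9% of those without it. The matches in members started at a median position of -107.5 from the start codon, with quartiles at -129.75 and -86. They ran from -229 to 5, and the match at 5, in UTP4 of UtpA, lies within the coding sequence.

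RRPE was present in 32 members (58.2%) and in 6.98% of all windows. It was found in 11 of the 20 members that rose and in 21 of the 33 that were not called. Of the 8 members with RRPE and no PAC none was called, and their log2 fold changes ran from -0.19 to 0.26. The 24 members with both motifs included 11 that rose, and the 15 with PAC alone included 8. Among all tested genes, members included, 23.0% of those with both motifs rose. With PAC alone 17.0% rose, and with RRPE alone 12.5%. The shorter core GATGAG, tried after these values had been seen, was present in 49 members and in 20.4% of all windows. It lies in the stretch of RRP9 printed above, in all 20 members that rose and in 28 of the 33 not called. A match is only a run of letters, and no match says only that these letters are not in this window.

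**Figure D2:**
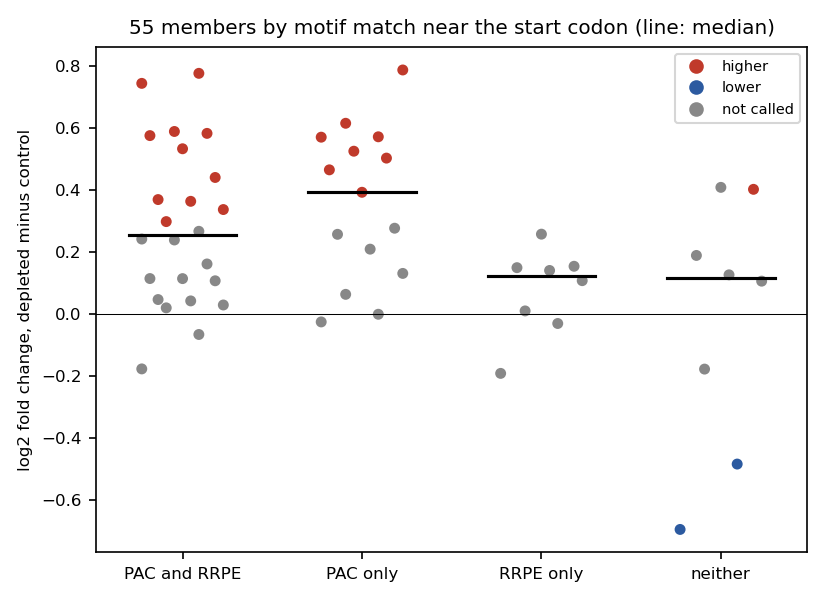
Log2 fold change (depleted minus control) of the 55 members, 1 point per gene, split by PAC (CGATGAG) and RRPE (AAAAATTTT) matches from 250 bases before to 50 after the start codon, with a line at each median. The medians are 0.25 for both motifs, 0.39 for PAC only, 0.12 for RRPE only and 0.12 for neither, and the only blue (lower) points, UTP22 and RRP9, have neither motif.

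None of the 7 UtpA genes passed the test, with log2 fold changes between -0.03 and 0.27 and a median of 0.13. Of all members 36.4% rose, and of all genes tested 14.1%. The most abundant per kilobase of coding sequence was NAN1 (YPL126W), a WD-repeat subunit, at 177 ± 4.91 CPM per kb (SD, n = 3) in controls. NAN1 stood at 465.1, 472.3 and 490.8 CPM in the controls and at 554.6, 513.0 and 481.1 CPM in the depleted libraries. The groups overlapped, and its log2 difference of 0.11 had a 95% interval from -0.12 to 0.35. UTP10 (YJL109C), the largest UtpA protein, differed by 0.27 with an interval from -0.00 to 0.54. As in 20.6% of all genes tested, every depleted library lay above every control library for UTP4 and UTP5. Their differences were 0.24 and 0.24, with adjusted p = 0.126 and adjusted p = 0.0975 in edgeR's test. The upper ends of the 95% intervals reached at most 0.54 in this group.

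UtpB differed between its own subunits: 4 of its 6 genes rose, with a median log2 fold change of 0.46 over all 6. That is 66.7%, against 36.4% of all members and 14.1% of all genes tested. DIP2 (YLR129W, chromosome XII, 399657 to 402488) encodes a WD-repeat subunit and stood at 281.4, 285.9 and 270.6 CPM in the controls. In the depleted libraries it stood at 451.8, 452.7 and 529.6 CPM. The groups were far apart, and the rise of 0.78 ± 0.11 (1.71-fold) had the smallest adjusted p of any member (edgeR, adjusted p = 2.21e-05).

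UTP21 (YLR409C, chromosome XII, 934414 to 937233), another WD-repeat subunit, went from 455.1, 471.4 and 497.5 CPM to 775.9, 678.2 and 673.2 CPM. Its rise was 0.58 ± 0.11 (edgeR, adjusted p = 0.000832), with no overlap between groups. PWP2 (YCR057C, chromosome III, 220457 to 223228), for which the complex is also named, went from 391.9, 407.5 and 406.2 CPM to 561.1, 541.8 and 643.5 CPM. All 3 depleted libraries lay well above the controls, and the rise was 0.53 ± 0.11 (edgeR, adjusted p = 0.00142). UTP18 (YJL069C) went from 145.0, 161.6 and 156.4 CPM to 222.6, 168.7 and 222.7 CPM. Depleted library 2 was only just above the highest control here, and the rise was 0.39 ± 0.13 (edgeR, adjusted p = 0.0329). The call of UTP18 was kept in 8 of 15 alternative fits, described below, and those of DIP2, UTP21 and PWP2 in 14. The other UtpB genes were not called. UTP13 differed by 0.06 (95% interval -0.17 to 0.30), and UTP6, which encodes a helical-repeat subunit, by -0.18 (-0.49 to 0.14).

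The step between UtpA and UtpB was also expressed within each library, where scaling has no part. This ratio, like those given below, was chosen with results of these data known. It restates fitted differences in the same 6 libraries and is no separate support for them. The log2 ratio of summed UtpB to summed UtpA counts was -0.47, -0.41 and -0.44 in control libraries 1 to 3. In the depleted libraries it was -0.20, -0.15 and -0.12. The groups did not overlap, and the ratio was higher by 0.28 after depletion (exact two-sided permutation test, p = 0.1, the smallest that 3 against 3 libraries can give).

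All 3 genes of the Mpp10 complex rose, where 36.4% of all members and 14.1% of all genes tested did. MPP10 (YJR002W), its scaffold, stood at 301.5, 325.8 and 306.8 CPM in controls and at 419.2, 464.9 and 405.9 CPM in depleted libraries. The groups were apart, with a rise of 0.47 ± 0.11 (edgeR, adjusted p = 0.00274). IMP4 (YNL075W), a Brix-domain RNA-binding protein, went from 113.4, 124.3 and 125.5 CPM to 156.2, 201.9 and 186.1 CPM. Its rise of 0.58 ± 0.13 also showed no overlap (edgeR, adjusted p = 0.00277). IMP3 (YHR148W), which with Imp4 promotes pairing of U3 with pre-rRNA, went from 57.4, 65.7 and 67.1 CPM to 79.4, 87.4 and 117.8 CPM. Every depleted library lay above every control, with a rise of 0.57 ± 0.18 (edgeR, adjusted p = 0.0239). The call of IMP3 was kept in 9 of 15 alternative fits, described below, and those of MPP10 and IMP4 in 14.

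Against UtpA in the same library, the log2 ratio of summed Mpp10 complex counts was -2.34, -2.21 and -2.28 in controls and -2.09, -1.77 and -1.97 in depleted libraries. It was higher by 0.33 after depletion without overlap (exact two-sided permutation test, p = 0.1, the smallest possible). This too restates the fitted differences of the classes compared. The GTPase gene BMS1 (YPL217C), whose protein acts with this complex, was not called, with a difference of 0.11 (95% interval -0.13 to 0.34). Its partner RCL1 (YOL010W), which resembles RNA 3′-terminal cyclases, stood at 120.6, 94.1 and 125.5 CPM in controls and at 110.7, 115.4 and 107.9 CPM in depleted libraries. The groups overlapped and RCL1 was not called either, with a difference of -0.03 (-0.34 to 0.29).

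UtpC moved the other way in 1 of its 2 tested genes. UTP22 (YGR090W, chromosome VII, 662358 to 666071) encodes a protein that also occurs in CURI, a complex with Rrp7, casein kinase 2 and Ifh1, the coactivator of ribosomal protein genes. It stood at 483.8, 430.6 and 479.3 CPM in controls and at 303.3, 240.3 and 318.8 CPM in depleted libraries. All depleted libraries lay far below the controls. UTP22 fell by 0.70 ± 0.12 on the log2 scale, 1.62-fold lower (edgeR, adjusted p = 0.000216).

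RRP7 (YCL031C), its partner in UtpC and CURI, was not called. It stood at 188.1, 179.3 and 175.9 CPM in controls and at 239.5, 200.1 and 161.4 CPM in depleted libraries, which lay on both sides of the controls. The log2 ratio of UTP22 to RRP7 counts was 1.36, 1.26 and 1.45 in controls and 0.34, 0.26 and 0.98 in depleted libraries. The ratio was lower by 0.83 in the means, without overlap (exact two-sided permutation test, p = 0.1, the smallest possible). UTP22 had the strongest fall of the members, so this separation is no support beyond its call. Depleted library 3 lay closest to the controls.

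Of the 6 other genes listed for CURI and its partner factor, 1 was called higher (16.7%, near the 14.1% of all genes tested). CKA2, a catalytic subunit of casein kinase 2, rose by 0.34 (edgeR, adjusted p = 0.0483), a call kept in 6 of 15 alternative fits (other scalings, filters and tests, a replicate block, and each library left out). CKA1, CKB1 and CKB2, the other casein kinase 2 subunits, differed by -0.27, 0.05 and -0.15. IFH1 differed by -0.34 (edgeR, adjusted p = 0.0966) and FHL1, which recruits Ifh1 to ribosomal protein promoters, by -0.05. None of these 5 was called.

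RRP9 (YPR137W, chromosome XVI, 802359 to 804080) encodes the WD-repeat protein that is specific to the U3 particle. It stood at 211.0, 218.4 and 199.4 CPM in controls and at 152.3, 152.1 and 144.5 CPM in depleted libraries. The groups were clearly apart, and RRP9 fell by 0.48 ± 0.12 on the log2 scale, 1.40-fold lower (edgeR, adjusted p = 0.00417). The core proteins of box C/D and H/ACA particles, which are no members, had a median log2 fold change of -0.20 over 8 genes. Of these 8, 1 fell (12.5%, near the 14.1% of all genes tested), CBF5, the H/ACA pseudouridine synthase, by 0.58. The other 7 were not called.

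**Figure D3:**
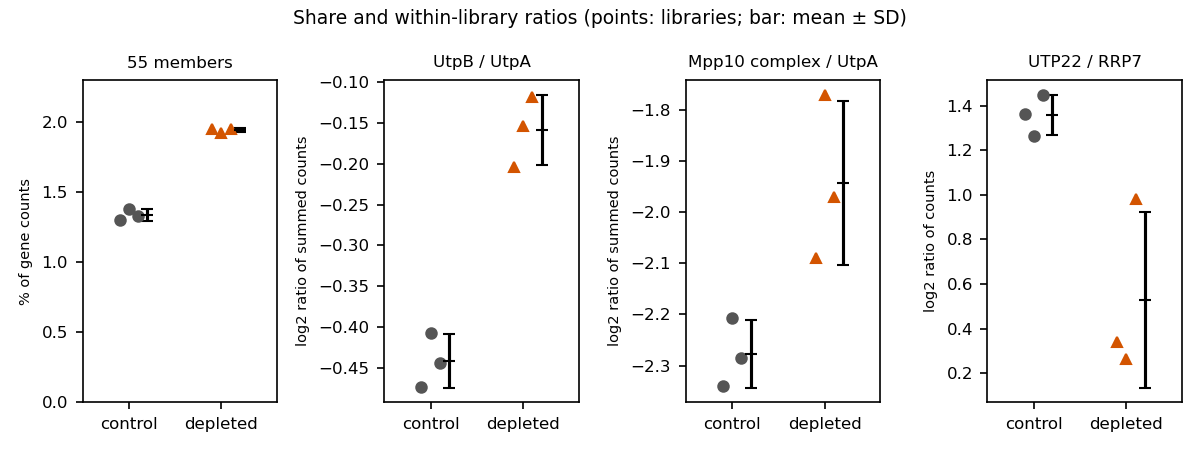
The members' share of gene counts (percent, axis from 0) and 3 log2 ratios of counts within a library (axes not from 0), for the 3 control (circles) and 3 depleted (triangles) libraries, with the mean and SD beside the points. The share and the UtpB and Mpp10 complex ratios to UtpA are higher in every depleted library, and the UTP22 to RRP7 ratio is lower in every depleted library, nearest to the controls in library 3 at 0.98.

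Among the other structural factors 4 of 11 rose, with a median log2 fold change of 0.13 over the 11. That is 36.4%, the same share as of all members, against 14.1% of all genes tested. UTP11 (YKL099C) went from 122.0, 127.0 and 102.7 CPM to 157.5, 180.9 and 178.2 CPM. It rose by 0.57 ± 0.14 without overlap (edgeR, adjusted p = 0.00357). UTP20 (YBL004W), a very large helical-repeat protein, went from 1035, 938.4 and 987.5 CPM to 1282, 1327 and 1200 CPM. Its 3 depleted libraries lay above all controls, with a rise of 0.36 ± 0.12 (edgeR, adjusted p = 0.0244).

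NOP14 (YDL148C), which binds Noc4 and Emg1, went from 291.4, 339.1 and 257.8 CPM to 352.8, 388.9 and 377.2 CPM. The gap between the groups was small, and the rise was 0.34 ± 0.11 (edgeR, adjusted p = 0.0338). KRR1 (YCL059C), a KH-domain protein, went from 175.1, 237.0 and 183.9 CPM to 302.0, 299.8 and 212.8 CPM. Control library 2 lay above depleted library 3, so the groups overlapped in spite of the call (0.44 ± 0.14, edgeR, adjusted p = 0.0282). NOC4 and the methyltransferase gene EMG1, the partners of NOP14, differed by 0.13 and -0.18 and were not called. The WD-repeat genes UTP7 and SOF1 differed by -0.00 and 0.21. UTP14, whose protein activates the helicase Dhr1, differed by -0.07, SAS10 by 0.01 and BUD21 by 0.03, and none of these 5 was called.

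The 3 nuclease-linked genes were not called. FCF1 (YDR339C), also known as UTP24, encodes the PIN-domain endonuclease of the early cleavages, and differed by 0.15 (95% interval -0.21 to 0.51). UTP23 (YOR004W), its relative, was the most abundant per kilobase, at 166.5, 174.0 and 136.3 CPM in controls and 201.8, 171.3 and 156.4 CPM in depleted libraries. The groups overlapped, with a difference of 0.15 (95% interval -0.14 to 0.44). FCF2, the remaining gene, differed by 0.05 (-0.32 to 0.41).

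All 7 helicase genes had positive log2 fold changes, as did 46 of the 55 members and 2646 of the 5195 genes tested. Of the 7, 3 rose (42.9%, near the 36.4% of all members, against 14.1% of all genes tested). DHR2 (YKL078W, chromosome XI, 288845 to 291052), a DEAH-box helicase, stood at 74.7, 103.0 and 110.1 CPM in controls and at 182.3, 148.6 and 180.2 CPM in depleted libraries. Every depleted library was above every control, and the log2 fold change of 0.79 ± 0.15 (1.73-fold) was the highest of the 55 members (edgeR, adjusted p = 0.000687). DBP8 (YHR169W), a DEAD-box helicase stimulated by Esf2, went from 116.3, 146.5 and 162.5 CPM to 230.4, 204.5 and 217.8 CPM. It rose by 0.59 ± 0.13 without overlap (edgeR, adjusted p = 0.00224). FAL1 (YDR021W), a DEAD-box helicase related to eIF4A, went from 40.2, 37.3 and 55.7 CPM to 78.1, 76.0 and 55.4 CPM. Control library 3 lay just above depleted library 3, so the groups overlapped, and the rise of 0.62 ± 0.22 had the largest SE of any called member (edgeR, adjusted p = 0.0407).

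ECM16, which encodes Dhr1, the helicase that strips U3 from the pre-rRNA, differed by 0.28 and did not pass (edgeR, adjusted p = 0.0616). Its depleted libraries all lay above the controls, as did those of HCA4 and RRP3, with 0.26 and 0.26. Such a separation held for 20.6% of all genes tested. ROK1 differed by 0.02 (95% interval -0.26 to 0.30).

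Among the 7 helicase partners and related genes 4 rose (57.1%, against 36.4% of all members and 14.1% of all genes tested). UTP25 (YIL091C, chromosome IX, 191030 to 193195) encodes a helicase-like protein and stood at 185.2, 203.3 and 216.2 CPM in controls and at 326.8, 367.0 and 324.7 CPM in depleted libraries. The groups were far apart, with a rise of 0.74 ± 0.11 (1.68-fold; edgeR, adjusted p = 3.22e-05). SGD1 (YLR336C), which stimulates Fal1, went from 145.0, 164.2 and 150.4 CPM to 175.8, 237.7 and 245.5 CPM. It rose by 0.53 ± 0.13 without overlap (edgeR, adjusted p = 0.00632). Its call was kept in 14 of the 15 alternatives, whereas that of FAL1 was kept in 8.

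ENP2 (YGR145W), a WD-repeat protein that binds Bfr2, went from 236.9, 281.4 and 269.2 CPM to 354.1, 374.9 and 392.0 CPM. It rose by 0.50 ± 0.10 with a clear gap between the groups (edgeR, adjusted p = 0.00117). LCP5 (YER127W), which binds in the same region of the particle, went from 279.9, 298.3 and 250.4 CPM to 308.5, 373.2 and 331.6 CPM. Depleted library 1 was close to control library 2, and the rise of 0.30 ± 0.11 was just past the threshold (edgeR, adjusted p = 0.0489) and was called in 4 of the 15 alternatives. BFR2, ESF1 and ESF2 were not called, at 0.11, 0.19 and 0.11. For ESF2, the partner of DBP8, the interval ran from -0.30 to 0.51.

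Of the 6 further factors 2 rose (33.3%, near the 36.4% of all members, against 14.1% of all genes tested). NOP9 (YJL010C), a Pumilio-like RNA-binding protein, went from 229.7, 269.0 and 235.6 CPM to 385.4, 319.0 and 273.2 CPM. Depleted library 3 lay just above control library 2, and the rise was 0.40 ± 0.12 (edgeR, adjusted p = 0.0203). RRP12 (YPL012W), a helical-repeat protein linked to export of both subunits, went from 658.9, 589.5 and 626.4 CPM to 751.2, 761.2 and 907.8 CPM. It rose by 0.37 ± 0.12 without overlap (edgeR, adjusted p = 0.0267).

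RRP5 (YMR229C), which acts in the assembly of both subunits, stood at 1192, 1282 and 1233 CPM in controls and at 1060, 1064 and 1123 CPM in depleted libraries. Its groups did not overlap, but the difference of -0.19 (95% interval -0.43 to 0.05) was not called (edgeR, adjusted p = 0.235). KRE33, the RNA cytidine acetyltransferase, and MRD1 differed by 0.11 and 0.16. UTP30, which has a ribosomal L1 domain, had few counts and a wide 95% interval, from -0.04 to 0.86 around 0.41, and was not called.

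**Figure D4:**
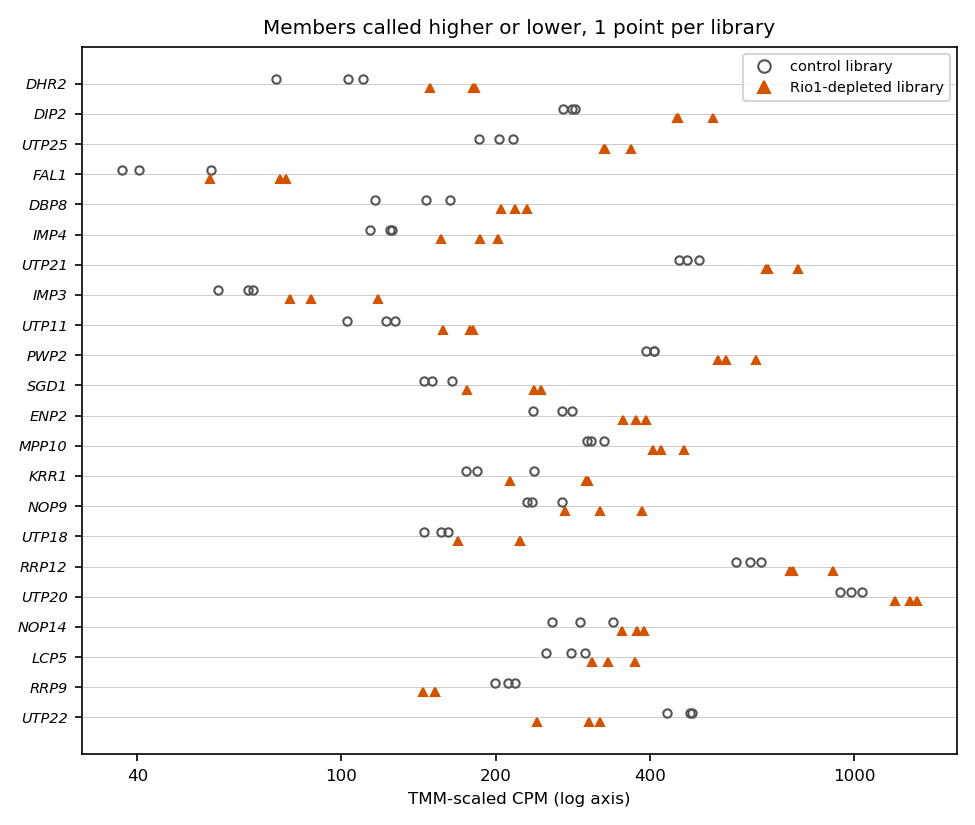
TMM-scaled CPM (log axis) of the 22 called members, 1 point per library, open circles for control and triangles for depleted. The groups are separate in all but KRR1 and FAL1, and the depleted libraries lie to the left of the controls in the bottom pair, RRP9 and UTP22.

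Per kilobase of coding sequence the control levels of the 55 members ran from 37.0 CPM per kb for FAL1 to 257 CPM per kb for LCP5. Their median was 125 CPM per kb, against 54.7 CPM per kb for all tested genes with a coding length. The SD of the log2 levels over the 55 members was between 0.56 and 0.64 in control libraries and between 0.59 and 0.62 in depleted libraries. UTP22 stood at the members' median in controls, at 125 ± 7.95 CPM per kb, and at 77.4 ± 11.2 CPM per kb after depletion (SD, n = 3). DIP2 took the opposite course, from 98.6 ± 2.78 to 169 ± 15.8 CPM per kb. The within-library log2 ratio of DIP2 to UTP22 counts thus went from between -0.83 and -0.59 in controls to between 0.57 and 0.91 in depleted libraries. This pair was picked for its opposite calls, so the size of the shift follows from that choice.

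**Figure D5:**
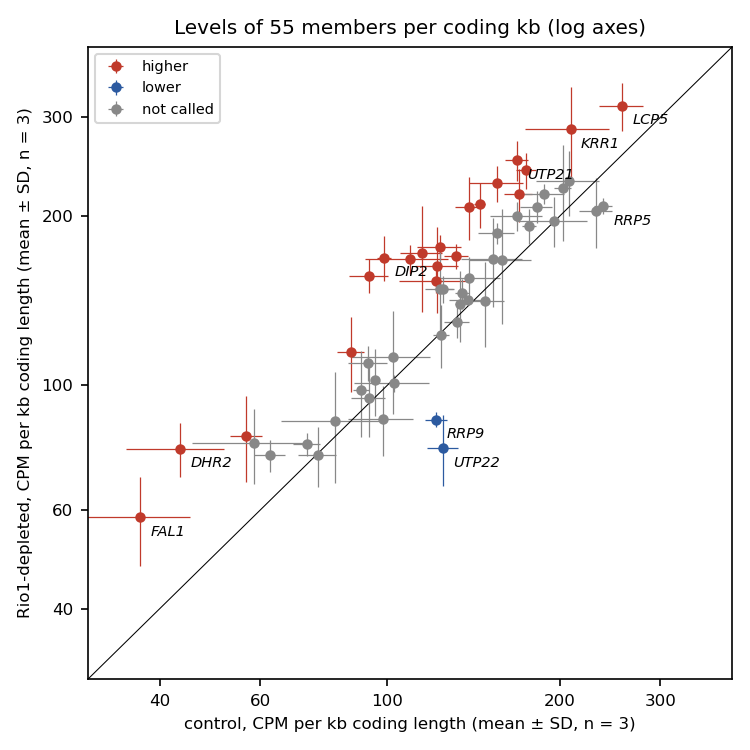
Mean level of each member per kilobase of coding length in control (x axis) and depleted (y axis) libraries, in CPM per kb on log axes, with SD bars (n = 3) and the line of equal level. RRP9 and UTP22, the members called lower, lie below the line, as do some members that were not called, among them RRP5, EMG1 and UTP6. LCP5 has the highest level in both groups, at 257 and 315 CPM per kb.

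The members' calls depended on the reference level. As a share of all gene counts the 55 members took 1.30%, 1.38% and 1.33% in control libraries 1 to 3 and 1.95%, 1.93% and 1.95% in depleted libraries 1 to 3. With ribosomal protein genes and the rDNA rows (identifiers that start with YLR154) left out of the total, the shares were 1.77%, 1.84% and 1.77% and then 2.20%, 2.28% and 2.21%. Neither set of shares overlapped between the groups (exact two-sided permutation test, p = 0.1 for each, the smallest possible). Scaled to library totals alone, 42 members were called higher and 1 lower, where 33.9% and 5.89% of all tested genes were. That scaling moved the median of all genes to 0.33 and that of the members to 0.53, so the members' median stood 0.20 above that of all genes under either scaling. Without control library 1 the count of members that rose was 11, and without control library 3 it was 12. Of all genes tested 11.1% and 10.0% rose in these fits, in that order. In every alternative other than the test against a 1.5-fold change, 11 of the 20 members that rose kept their call: PWP2, DIP2, UTP21, MPP10, IMP4, UTP11, DHR2, DBP8, UTP25, ENP2 and SGD1. UTP22 kept its call in the same alternatives, and RRP9 lost it with library totals and in the test against a 1.5-fold change. The other members that rose kept their calls less often. Of the 15 alternatives LCP5 kept its call in 4, UTP18 and FAL1 in 8, and IMP3, NOP14 and KRR1 in 9. UTP20, NOP9 and RRP12 kept theirs in 10.

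Other lists of ribosome assembly genes are given for scale. Of 15 late pre-40S factors 2 rose (13.3%, against 14.1% of all genes tested) and none fell, with a median of 0.23. The 2 were DIM1, the 18S rRNA dimethylase, at 0.63 and LTV1 at 0.41, and their calls were kept in 14 and 7 of the 15 alternatives. Of 56 factors of 60S assembly 8 rose (14.3%, near the 14.1% of all genes tested) and none fell, with a median of 0.08. These were DRS1, BRX1, RRP1, NOP8, RPF2, DBP7, IPI3 and NMD3, with rises between 0.32 and 0.67. BRX1 and RRP1 kept their calls in 14 of the 15 alternatives, while RPF2 kept it in 7 and NMD3 in 6. PAC was present in 39 of these 56 genes, of which 7 rose, against 19 of the 39 processome members with PAC. The difference between the lists was not tested.

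Of 10 genes of RNA polymerase I and its factor 3 rose (30.0%, against 14.1% of all genes tested), and the median was 0.19. RPA49, RPC19 and RRN3 rose by 0.30, 0.56 and 0.76. Their calls were kept in 4, 9 and 14 of the 15 alternatives. All 56 genes of small-subunit ribosomal proteins fell, where 14.1% of all genes tested did, with a median of -1.45, and none of them held PAC. Among 5 regulators of PAC and RRPE genes 1 fell (20.0%, against 14.1% of all genes tested). This was STB3, which binds RRPE, at 0.72 lower (edgeR, adjusted p = 0.0152). DOT6 and TOD6, repressors that bind PAC, differed by 0.23 and 0.29, SFP1 by -0.20 and the kinase gene SCH9 by -0.18, and these 4 were not called.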

How the data were processed

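The submitters' processing notes name sacCer3 with the tools TopHat2 2.0.8, HTSeq and DESeq. Which annotation and strand option were used is not given in the sources used here. Raw counts of reads per gene were what the authors deposited, 1 file per library, with 5 summary rows that were left out of library sizes. Reads with more than 1 alignment made up 45.2% to 65.9% of a file's entries, those outside genes 11.0% to 17.9% and ambiguous ones 0.81% to 1.46%. Of 6692 identifiers 6008 matched RefSeq R64, and overlaps with the other 684 are unknown. No member overlaps another R64 gene, and each has an uninterrupted coding sequence. Library depth, 683896 to 1671136 gene counts, limits precision, and the SE of members' log2 fold changes was 0.10 to 0.22.

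Counts were fitted over all genes with edgeR 4.0.16 in R 4.3.3 (TMM, filterByExpr with minimum count 10 and minimum total 15, glmQLFit, glmQLFTest, Benjamini-Hochberg, called under 0.05), 3 depleted against 3 control libraries. The SE is the size of the log2 fold change over the root of its F statistic, and intervals are 95%. Shares and ratios were compared by exact two-sided permutation. Alternatives used limma 3.58.1 and DESeq2 1.42.0, other scalings and filters, a replicate block and leaving out each library. No libraries held identical values. The members, lists and tests were chosen with earlier results of these data known. All members may be named, with every library's value for called ones and for the most abundant per kilobase of a role with no call. RRP7 and RRP5 were given in every library after their values were seen. Further genes came from the lists. The rDNA rows were taken as all identifiers that start with YLR154, a prefix not limited to open reading frames within the rDNA. They took 4.12% of gene counts in depleted library 2, 1.48% in control library 1 and 0.059% to 0.197% elsewhere.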

Additional observations from a re-analysis of the deposited data

How the results depend on the processing

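The main count was 20 members higher and 2 lower (median log2 fold change 0.21). With library totals it was 42 higher, 1 lower and a median of 0.53, where 33.9% and 5.89% of all tested genes were called. DESeq2 gave 13 higher and 2 lower, where 9.30% and 10.4% of all tested genes were called. The test with edgeR's glmTreat against a 1.5-fold change gave 0 higher and 0 lower. In it 3.93% of all tested genes were still called higher and 3.66% lower. Leaving out 1 library at a time gave 11 to 17 higher and medians of 0.15 to 0.24, with 2 lower each time. In these fits 10.0% to 12.8% of all tested genes were higher and 11.2% to 13.2% lower. The gain in the members' share was 0.603 percentage points, and 0.430 without ribosomal protein and rDNA rows. Same-numbered libraries did not deviate together (correlations -0.057, -0.001 and 0.077), and the fit with the replicate block gave 19 higher, 2 lower and a median of 0.21. Of all tested genes 14.3% were higher and 14.6% lower in that fit. With the block FAL1, NMD3 and RPA49 were at adjusted p = 0.05004, 0.0567 and 0.0535 (edgeR) and lost their calls, and no other named call changed. The other scalings, filters and limma-voom gave 19 to 23 higher and 2 lower. In these fits 11.5% to 17.0% of all tested genes were higher and 12.6% to 17.7% lower. Sign changes touched genes that were not called. With library totals the log2 fold change was 0.29 for UTP15, 0.14 for UTP6, 0.29 for RCL1, 0.31 for UTP7, 0.14 for EMG1, 0.25 for UTP14, 0.13 for RRP5, 0.044 for CKA1, 0.16 for CKB2, 0.27 for FHL1, 0.12 for SFP1 and 0.14 for SCH9. With a mean of at least 50 counts it was 0.0054 for UTP15, 0.011 for RCL1 and 0.0356 for UTP7. SAS10 was at -0.003 with TMM without ribosomal protein and rDNA rows, -0.011 without a count filter and -0.012 in DESeq2, and ROK1 at -0.001 without a count filter. Leaving out 1 library, signs changed within the ranges of UTP8 (-0.0331 to 0.20), UTP9 (-0.0337 to 0.0703), UTP15 (-0.0911 to 0.0155), UTP13 (-0.0502 to 0.15), RRP7 (-0.0005 to 0.27), BMS1 (-0.0143 to 0.19), RCL1 (-0.17 to 0.0578), UTP7 (-0.0928 to 0.0812), UTP14 (-0.21 to 0.0518), SAS10 (-0.0778 to 0.093), BUD21 (-0.12 to 0.0821), FCF1 (-0.0024 to 0.28), FCF2 (-0.0874 to 0.22), ROK1 (-0.0795 to 0.13), ESF2 (-0.11 to 0.26), CKB1 (-0.0243 to 0.14), FHL1 (-0.13 to 0.0074) and SFP1 (-0.41 to 0.048). The cause was not tested.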

Other observations

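No 2 members are neighbours in R64. For 25 of the 55 the nearest upstream protein-coding gene, here called the neighbour, runs in the opposite direction. Whether a gene of another kind lies between both starts was not examined. Of these neighbours 23 were tested, 3 rose and 4 fell, where 14.1% of all tested genes rose and 14.1% fell, and their median log2 fold change was 0.02. The neighbours named next were chosen after their values were seen. The neighbour of NOP14 is RPN5, a proteasome lid subunit, with a log2 fold change of 0.85. NOP14 is also the only member whose window holds PACE, the Rpn4 site searched as GGTGGCAAA on both strands, which 1.20% of all windows hold. RPS10B, the neighbour of RRP5, was at -1.50, and RPS18A, the neighbour of UTP6, at -1.24, although RRP5 and UTP6 were not called. YPL216W, the neighbour of BMS1, was at 1.99 and BMS1 was not called. A heat shock element, searched as TTCNNGAA on both strands, was present in 10 members (18.2%), 1 of which rose, and in 12.9% of all windows.

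Coding lengths of the members ran from 552 to 7482 bases, with a median of 1785 against 1305 for all tested genes with a coding length. Across the 55 members the Spearman correlation of log2 fold change was 0.05 with coding length, -0.01 with GC content and -0.17 with control level per kilobase. Over 5122 tested genes these were 0.08, -0.03 and -0.38. Genes are not independent replicates and share the 6 libraries, so these are descriptions without a test.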
